A study of Zea mays with 4 samples.

Results

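Polysome-enriched loci of maize (Zea mays) endosperm were examined 15 days after pollination in kernels of the rea1 mutant and of wild type. The rule that chose these loci required them to stand higher in polysome-bound than in total RNA in both genotypes. It also kept the difference between rea1 and wild type within 2-fold in each RNA fraction, after the centring described below. As deposited, the difference of rea1 minus wild type in total RNA reached 1.47 on the log2 scale given below. Of 29642 entries, 150 met this rule. The rule left out the mitochondrial and plastid genomes and took a mean over the 4 libraries of 5 to below 100 FPKM (fragments scaled for transcript length and for the size of the library) and a locus length of 600 to 19999 bp. On the log2(FPKM + 1) scale, polysome-bound minus total RNA had to be at least 1 (2-fold) in rea1 and in wild type. The difference of rea1 minus wild type had to lie between -1 and 1 in polysome-bound RNA and in total RNA. Each of these 4 differences was first centred on its median over the 17682 loci that averaged 1 FPKM or more. The groups were rea1 polysome-bound, rea1 total, wild-type polysome-bound and wild-type total RNA, with 1 library in each, all from endosperm of the kernel. The values that chose the loci are the only expression values in the files, so levels and differences are given as a description, without a test, and no difference has a replicate check. The labels name the mutant only as rea1, with no allele, parent line or number of kernels.

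Polysomes are messenger RNAs that carry several ribosomes, and they pellet through a dense sucrose cushion while free RNA does not. A transcript's level in the pellet reflects how much of it there is and how much of it is bound to ribosomes or to other heavy particles, and the ratio to total RNA removes the amount in part. Endosperm is the storage tissue of the cereal kernel, and at this stage it makes large amounts of a few storage proteins. The gene behind the maize mutant is not named in the labels. The yeast protein of that name, also called midasin, is a motor-like ATPase needed to mature the precursor particles of large ribosomal subunits. The files list loci by position on B73 RefGen_v3 and pair them with no gene name, so loci are given here by chromosome, start and end, and no role is given to any of them. For the same reason the tissue could not be checked against endosperm or embryo marker genes, and no sequences are shown.

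The summed FPKM lay between 846544 and 977156 in the 4 libraries. FPKM is relative to the library it comes from, so polysome-bound over total RNA is a ratio of shares and not the share of a transcript that was on polysomes. The centring values show the size of this: the median log2 difference of polysome-bound minus total RNA was -0.47 in rea1 and -0.06 in wild type. For rea1 minus wild type it was 0.24 in polysome-bound RNA and 0.62 in total RNA. Differences below are relative to these medians unless they are said to be as deposited.

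Within the limits of abundance and length there were 9391 loci. In rea1, 649 of them (6.91%) reached a polysome-minus-total difference of 1, and in wild type 465 (4.95%) did. Both limits were reached by 208 loci (2.21%), which is 32.0% of the rea1 list and 44.7% of the wild-type list. The 2 differences share no library. Across the 9391 loci Pearson's r was 0.57 and Spearman's rho 0.49, given as a description because all points come from the same 4 libraries. Of the 208 loci, 150 (1.6% of those within the limits) also met the limits on the genotype difference. Since the rule used these values, the counts describe the choice and nothing more.

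**Figure D1:**
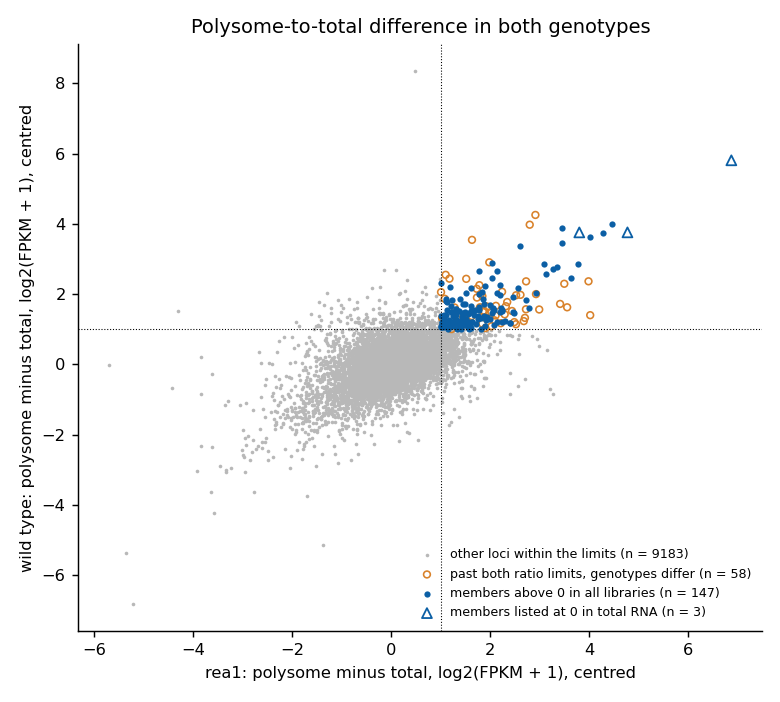
Polysome-bound minus total RNA on the log2(FPKM + 1) scale, centred, in rea1 (x axis) and wild type (y axis), 1 point per locus within the limits; dotted lines mark the limit of 1. The 147 members above 0 in all libraries and the 3 listed at 0 in total RNA fill the upper right, where 58 further loci differ between the genotypes, and 9183 loci lie elsewhere.

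The 150 loci were moderately expressed. As deposited every one had a higher FPKM in polysome-bound than in total RNA in both genotypes, which the rule fixes in advance. With these centring medians, a centred difference of 1 needs a positive difference as deposited. The lowest as deposited were 0.533 in rea1 and 0.945 in wild type (log2). In rea1 polysome-bound RNA their levels ran from 6.0 FPKM through a median of 19.3 to 123, against 0, 8.27 and 79.6 FPKM in rea1 total RNA. For polysome-bound RNA of wild type the lowest, median and highest levels were 5.24, 17.0 and 114 FPKM, against 0, 5.04 and 40.3 FPKM in wild-type total RNA. The ranges overlap between the fractions because the loci differ in level, while within each locus the rule kept the fractions from crossing. Summed, the loci made up 0.510% of rea1 polysome-bound and 0.196% of rea1 total RNA. In wild type the shares were 0.392% of polysome-bound and 0.115% of total RNA.

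As deposited, the fold of polysome-bound over total RNA was smaller in rea1 than in wild type in 108 of the 147 loci that have a fold in both. All loci within the limits leaned the same way, with a median fold of 0.731 in rea1 and 0.970 in wild type. Among the 148 loci above 0 in both rea1 libraries the median fold was 2.23, and 94 were at least 2-fold apart. Among the 147 above 0 in both wild-type libraries the median fold was 2.84, and all 147 were at least 2-fold apart. Of all 9391 loci within the limits, 280 in rea1 and 516 in wild type were at least 2-fold apart. The unequal centring medians admit smaller folds in rea1 than in wild type, so nothing is read from these counts. After centring, the median log2 difference was 1.56 in rea1, with quartiles of 1.28 and 2.06, and 1.41 in wild type, with quartiles of 1.19 and 1.80. Most loci lay near the limit: the smaller of the 2 differences was under 1.25 in 68 loci, from 1.25 to under 1.5 in 34, from 1.5 to under 2 in 26, from 2 to under 3 in 14, and 3 or more in 8.

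**Figure D2:**
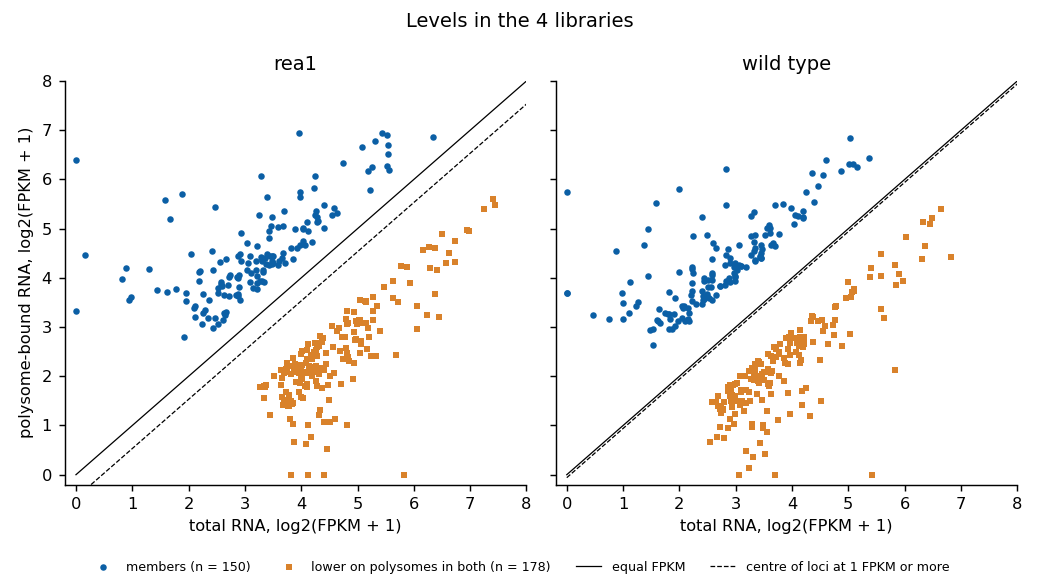
Polysome-bound RNA (y axis) against total RNA (x axis), both as log2(FPKM + 1), in rea1 (left) and wild type (right), for the 150 members and for 178 loci that met the mirrored limits. By the rule, all 150 members lie above the line of equal FPKM in both panels. The dashed line is the median of the 17682 loci used for centring. It is 0.47 lower than equality in rea1 and 0.06 lower in wild type.

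Where the gap between the fractions was widest, the median of total RNA was low. The median of polysome-bound RNA was higher there than near the limit, mainly in the top class of 8 loci. In the 8 loci with a smaller difference of 3 or more, the median was 44.5 FPKM in rea1 polysome-bound and 2.08 FPKM in rea1 total RNA, and 37.9 FPKM in wild-type polysome-bound and 1.27 FPKM in wild-type total RNA. These 8 include the 3 members listed at 0 in a total RNA library, which are described below. In the 68 loci nearest the limit, the medians were 19.2 and 9.52 FPKM in rea1 polysome-bound and total RNA and 15.1 and 6.63 FPKM in wild-type polysome-bound and total RNA. The 14 loci from 2 to under 3 had medians of 20.4 and 3.72 FPKM in the same fractions of rea1. In wild type their medians were 16.9 and 2.27 FPKM, so their polysome-bound levels were close to those of the 68. In 9 of the 150 loci total RNA was under 2 FPKM in both genotypes, and all 9 had a smaller difference of at least 2. Of all 9391 loci within the limits, 15 had total RNA under 2 FPKM in both genotypes. The limit of 5 FPKM on the mean admits such loci only through their polysome-bound RNA. High polysome-bound levels and wide gaps there are thus in part set by the rule. No source used here gives fragment totals. Products of FPKM and locus length were searched in a low range only, where the most frequent value lay between 74.99 and 106 in the 4 libraries. If that were the worth of 1 fragment, no member would have had under 20 fragments in polysome-bound RNA, while 5 in rea1 total and 7 in wild-type total RNA would have had fewer than that. Locus length includes introns, while FPKM was scaled by transcript length. Fragments of spliced loci can thus be overstated, and the numbers under 20 can be too low. The part of such low values in the widest gaps was not tested.

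Among loci above 0 in all libraries that share their coordinates with no other entry, the widest gap was at chromosome 7, 39888296 to 39889211, a locus of 916 bp. It had 46.6 FPKM in polysome-bound and 1.99 FPKM in total RNA of rea1, and 45.1 and 1.98 FPKM in the same fractions of wild type. Its fold was 23.4 in rea1 and 22.7 in wild type, so both genotypes gave almost the same values in both fractions. Chromosome 8, 70512973 to 70516141, had 35.8 and 2.17 FPKM in rea1 polysome-bound and total RNA and 30.8 and 1.70 FPKM in wild-type polysome-bound and total RNA, folds of 16.5 and 18.1. Next came chromosome 7, 165054074 to 165055852, the most abundant of the 8 named by this ranking. It stood at 122 and 14.7 FPKM in the rea1 fractions, polysome-bound before total, and at 73.3 and 6.06 FPKM in those of wild type. Its rea1 values were higher than its wild-type values in both fractions, and its folds were 8.32 in rea1 and 12.1 in wild type.

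Chromosome 1, 80961941 to 80962583, only 643 bp long, had 42.3 FPKM in polysome-bound and 4.52 FPKM in total RNA of rea1, and 55.1 and 2.99 FPKM in wild type. This locus had the smaller fold in rea1, 9.35, against 18.4 in wild type. Chromosome 7, 9195353 to 9199334, went the other way, with 17.5 FPKM in polysome-bound and 0.857 FPKM in total RNA of rea1, and 14.2 and 1.19 FPKM in wild type. Its folds were 20.4 in rea1 and 11.9 in wild type, both resting on about 1 FPKM of total RNA. Chromosome 1, 46077917 to 46084100, had 10.8 and 0.909 FPKM in rea1 and 8.51 and 0.373 FPKM in wild type, again with very low total RNA. Chromosome 5, 13238808 to 13243401, had 17.0 and 1.46 FPKM in rea1 and 11.9 and 0.971 FPKM in wild type, with folds of 11.7 and 12.2. The last of the 8, chromosome 7, 7423316 to 7428298, had more total RNA than those 3. It stood at 66.5 FPKM in polysome-bound and 8.72 FPKM in total RNA of rea1, and at 43.7 and 6.07 FPKM in wild type, with folds of 7.62 and 7.19. Of these 8 loci, 4 lie on chromosome 7, which holds 10.7% of the members and 7.73% of the other loci within the limits. Over all loci within the limits there, the SD of the polysome-minus-total difference was 0.910 in rea1 and 0.837 in wild type. These SDs were the largest of any chromosome, and nothing is read from the count.

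For 3 members at least 1 total RNA library was listed at 0, which can be a failed estimate, so no fold is given where it would need that value. Chromosome 7, 8223184 to 8225218, reached 83.6 FPKM in rea1 polysome-bound and 52.8 FPKM in wild-type polysome-bound RNA and was listed at 0 in both total RNA libraries. Chromosome 5, 78414356 to 78415645, reached 9.05 FPKM in rea1 and 11.98 FPKM in wild-type polysome-bound RNA and was likewise listed at 0 in both total RNA libraries. Chromosome 8, 26071033 to 26074622, reached 20.9 FPKM in rea1 and 11.99 FPKM in wild-type polysome-bound RNA, with 0.112 FPKM in rea1 total RNA and a listed 0 in wild-type total RNA. All 3 were present in polysome-bound RNA of both genotypes. Loci listed at 0 in some library made up 2% of the members, against 0.151% of the other loci within the limits; a total RNA value of 0 favours a locus under the rule.

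The 11 members at a mean of 50 to under 100 FPKM had median centred differences of 1.64 in rea1 and 1.55 in wild type. Over all members the medians were 1.56 and 1.41. Those with the highest mean FPKM are named next. Chromosome 1, 8973597 to 8975454, had a mean of 77.5 FPKM, with 119 FPKM in polysome-bound and 45.3 FPKM in total RNA of rea1, and 114 and 31.7 FPKM in wild type. Its centred differences were 1.84 in rea1 and 1.87 in wild type. Chromosome 3, 170863580 to 170866035, had 116 and 79.6 FPKM in rea1 and 70.8 and 28.1 FPKM in wild type. As deposited it was only 1.45-fold apart in rea1, against 2.52-fold in wild type, and after centring it only just passed the rea1 limit, at 1.003. Chromosome 2, 41216939 to 41217919, had 123 and 42.1 FPKM in rea1 and 78.9 and 32.9 FPKM in wild type, folds of 2.91 and 2.40.

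The next values set rea1 against wild type within each fraction, where the rule allowed centred differences between -1 and 1. As deposited, 112 of the 150 loci were higher in rea1 polysome-bound RNA and 127 were higher in rea1 total RNA, which is 74.7% and 84.7%. Of the other 9241 loci within the limits, 78.9% and 88.1% were higher in rea1, and so leaned the same way. In such bulk samples fewer cells of a type and less RNA per cell cannot be told apart. After centring, 79 of the 150 were above 0 in polysome-bound RNA (background 57.9%) and 56 were above 0 in total RNA (background 54.4%). The median centred difference of the members was 0.03 in polysome-bound and -0.15 in total RNA, against 0.08 and 0.06 over the other loci. The rule used this contrast, and nothing is read from these counts.

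The members farthest apart between the genotypes were chosen by rank. In polysome-bound RNA, chromosome 1, 213142273 to 213143773, had 80.0 FPKM in rea1 and 33.2 FPKM in wild type (centred difference 0.998), while its total RNA was 25.6 FPKM in rea1 and 15.4 FPKM in wild type. Chromosome 1, 180015325 to 180017868, had 50.9 FPKM in rea1 and 22.3 FPKM in wild-type polysome-bound RNA, with 2.68 and 0.833 FPKM in total RNA. At the other end, chromosome 1, 18187897 to 18189714, had 21.5 FPKM in rea1 and 36.5 FPKM in wild-type polysome-bound RNA, with 6.55 and 4.26 FPKM in total RNA, so its direction was opposite in the fractions as deposited. Chromosome 6, 130064006 to 130065055, had 13.7 FPKM in rea1 and 23.4 FPKM in wild-type polysome-bound RNA, and 4.95 and 5.28 FPKM in total RNA. In total RNA, chromosome 7, 167862249 to 167864329, stood at 11.99 FPKM in rea1 and 3.71 FPKM in wild type, and the abundant chromosome 3 locus above at 79.6 and 28.1 FPKM. These were the members highest in rea1 total RNA after centring. The lowest were chromosome 1, 243707108 to 243709449, with 2.80 FPKM in rea1 and 3.92 FPKM in wild-type total RNA, and chromosome 1, 211425319 to 211432149, with 2.05 and 2.96 FPKM.

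**Figure D3:**
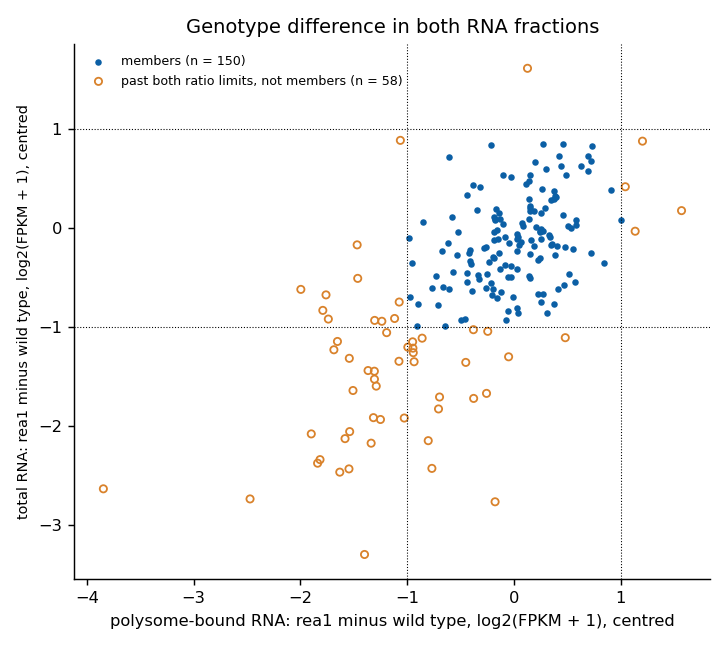
rea1 minus wild type in polysome-bound RNA (x axis) and total RNA (y axis), log2(FPKM + 1), centred, for the 150 members and the 58 loci that passed both ratio limits but differed between the genotypes. Dotted lines mark the limits of -1 and 1 that confine the members; 53 of the 58 other loci passed a lower limit and 5 an upper one.

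The polysome-minus-total difference of the members was compared between the genotypes, within what the rule's limits allow. The rea1 difference minus the wild-type difference lay within 0.5 (log2) in 103 of 150 loci, above 0.5 in 35 and below -0.5 in 12, with a median of 0.13 and a range from -1.30 to 1.23. These shares of 68.7%, 23.3% and 8% stand beside 63.7%, 19.6% and 16.7% of all loci within the limits, and nothing is read from them because the rule bounds this quantity. After centring 96 of the 150 loci had the larger difference in rea1, which is 64.0%, against 54.6% of all loci within the limits. This direction rests on the scaling: as deposited, only 44 of the 150 had the larger difference in rea1.

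The 3 members with the largest excess in rea1 were short and of low level. Chromosome 8, 128284200 to 128285361, had 16.3 FPKM in polysome-bound and 3.56 FPKM in total RNA of rea1, and 7.16 and 2.79 FPKM in wild type, folds of 4.59 and 2.57. Chromosome 7, 3011685 to 3012644, had 16.5 and 3.62 FPKM in rea1 and 10.9 and 4.44 FPKM in wild type, folds of 4.56 and 2.46. Chromosome 6, 162162303 to 162163681, had 12.5 and 1.73 FPKM in rea1 and 7.83 and 2.02 FPKM in wild type, folds of 7.26 and 3.87. In the last 2, polysome-bound RNA was higher and total RNA lower in rea1 than in wild type as deposited.

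At the other end, wild-type total RNA was low. Chromosome 8, 124371731 to 124373218, had 7.86 FPKM in polysome-bound and 5.12 FPKM in total RNA of rea1, and 10.5 and 1.41 FPKM in wild type, folds of 1.54 and 7.39. Chromosome 6, 3190761 to 3195290, had 8.08 and 4.503 FPKM in rea1 and 7.90 and 1.01 FPKM in wild type, folds of 1.79 and 7.83. Chromosome 1, 48873110 to 48874611, had 9.71 and 3.32 FPKM in rea1 and 15.4 and 1.71 FPKM in wild type, folds of 2.92 and 9.0. In all 3 total RNA was higher in rea1 than in wild type, while polysome-bound RNA was lower in rea1 in the first and last of them.

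The limits cut through a continuous range of values. Just inside the wild-type limit lay chromosome 2, 25431508 to 25435921, and chromosome 8, 86383121 to 86392953, with wild-type differences of 1.005 and 1.013. Just outside lay chromosome 4, 155857959 to 155859966, and chromosome 6, 149547176 to 149548435, with 0.9990 and 0.9971. Just inside the rea1 limit lay chromosome 1, 190777424 to 190781979, and the abundant chromosome 3 locus, with rea1 differences of 1.001 and 1.003. Just outside lay chromosome 5, 9822471 to 9823477, and chromosome 7, 136288989 to 136291438, with 0.997 and 0.991. For the genotype difference in total RNA the members nearest to the limit were the 2 chromosome 1 loci lowest in rea1, both at -0.99, and the loci just past it with the other limits met were chromosome 7, 107883948 to 107886373 (-1.02), and chromosome 6, 142288083 to 142289207 (-1.04). In polysome-bound RNA the nearest members were at 0.998 and -0.986, the loci of chromosome 1 at 213142273 and 18187897 named above. Among loci that met the other limits, those just past this one were chromosome 1, 54599336 to 54602391 (1.04), and chromosome 10, 130166275 to 130168203 (-1.06).

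Locus length entered the rule only through its outer limits, and the members were shorter than the other loci. Their median length was 2979 bp, with quartiles of 1533 and 4853 bp, against 4351 bp with quartiles of 2776 and 6613 bp for the other 9241 loci within the limits. Of the members 32.7% were under 2000 bp, against 15.2% of the other loci. The share of loci that were members was 4.58% of those from 600 to under 1000 bp, 2.92% from 1000 to under 2000 bp, 1.96% from 2000 to under 4000 bp, 0.887% from 4000 to under 8000 bp and 0.951% at 8000 bp or more. The 178 loci of the mirrored set, lower on polysomes in both genotypes, were as short, with a median of 2836 bp, and 31.5% of them were under 2000 bp. The spread of the polysome-minus-total difference over all loci within the limits moved in the same way: its SD was 1.19 in rea1 and 1.09 in wild type from 600 to under 1000 bp, and 0.571 and 0.515 at 8000 bp or more. The part of this spread in the lengths of the members was not tested. The length is the span of the locus, introns included, while FPKM was scaled by transcript length.

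**Figure D4:**
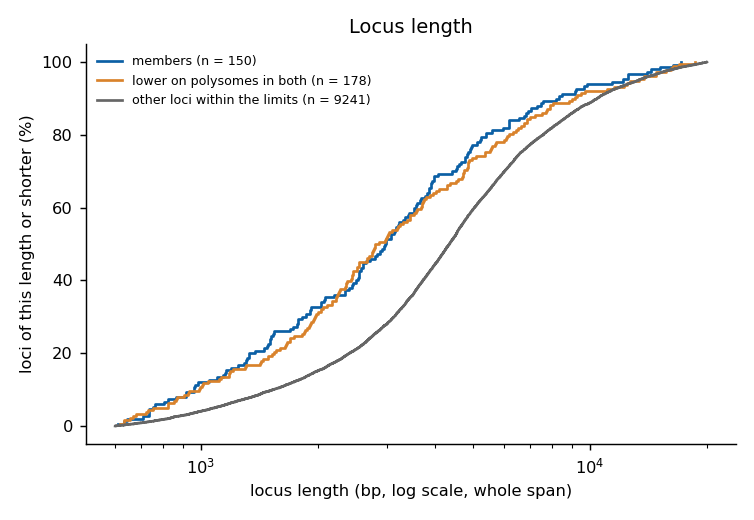
Cumulative share of loci (y axis, percent) by locus length (x axis, bp, log scale) for the 150 members, the 178 loci lower on polysomes in both genotypes and the other 9241 loci within the limits. The first 2 curves run together, with medians of 2979 and 2836 bp, and lie left of the curve of the other loci, whose median was 4351 bp.

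The shortest members were chromosome 9, 127253028 to 127253639 (612 bp), and chromosome 5, 13745608 to 13746240 (633 bp). The first had 27.2 FPKM in polysome-bound and 9.72 FPKM in total RNA of rea1, and 13.8 and 3.68 FPKM in wild type. The second had 11.8 and 3.79 FPKM in rea1 and 8.75 and 1.15 FPKM in wild type. Both were higher in rea1 than in wild type in each fraction as deposited. The longest members were neighbours. Chromosome 5, 91851841 to 91869019 (17179 bp), had 30.9 FPKM in polysome-bound and 15.3 FPKM in total RNA of rea1, and 31.3 and 11.2 FPKM in wild type. Chromosome 5, 91835196 to 91851583 (16388 bp), lies 257 bp from it and had 8.81 and 3.76 FPKM in rea1 and 9.41 and 3.42 FPKM in wild type. Their folds were 2.01 and 2.34 in rea1 and 2.81 and 2.75 in wild type. Whether adjacent loci share reads was not tested.

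Abundance was confined by the rule to a mean of 5 to below 100 FPKM, and the members were close to the other loci there. Their median of the mean FPKM was 12.9, against 14.01 for the other loci within the limits, and 34.0% against 35.0% had a mean under 10 FPKM. The mirrored set was lower, with a median of 9.43 FPKM and 53.4% under 10 FPKM. This mean averages over fractions that the rule sets apart. In polysome-bound RNA the members' medians were 19.3 FPKM in rea1 and 17.0 FPKM in wild type, against 13.6 and 10.8 FPKM for the other loci. In total RNA they were 8.27 and 5.04 FPKM, against 19.1 and 11.5 FPKM. By chromosome, the members made up 2.62% of the loci within the limits on chromosome 5 (31 of 1181) and 2.19% on chromosome 7 (16 of 730), down to 0.814% on chromosome 10 (5 of 614) and 0.746% on chromosome 4 (7 of 938). The other 6 chromosomes lay between 0.935% and 1.96%, and 1 member lies on an unplaced scaffold. On chromosome 7 the median difference of the members was 2.17 in rea1 and 2.01 in wild type, against 1.51 and 1.37 on chromosome 5. The SD of the difference over all loci within the limits was also largest on chromosome 7, at 0.910 in rea1 and 0.837 in wild type, against 0.673 to 0.790 in rea1 and 0.577 to 0.666 in wild type on the other chromosomes. The part of this spread in the count was not tested.

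Few members lay near each other. Another member was found within 100 kb for 8 of the 150 (5.33%, exact 95% binomial interval 2.33% to 10.2%), while 2.05% of the other 9241 loci within the limits had a member within that distance (1.77% to 2.35%). These intervals treat loci as independent, which neighbours are not. The trait is not particular to the members. In the mirrored set, lower on polysomes in both genotypes, 14 of 178 loci (7.87%) had another locus of that set within 100 kb. Such a locus lay that near for 2.42% of the 9241 loci that are not members, and for 4% of the members. After the chromosome 5 pair of long loci, the closest pairs were 31108 bp and 45293 bp apart. The pair on chromosome 5 at 4217936 to 4222849 and 4253958 to 4257719 had 14.1 FPKM in polysome-bound and 9.10 FPKM in total RNA of rea1 at the first locus, and 25.05 and 7.26 FPKM at the second. In wild type the first had 16.02 and 6.81 FPKM and the second 17.9 and 7.53 FPKM. The second locus thus had the wider gap in rea1, while in wild type both had similar gaps. The pair on chromosome 1 joins the locus at 46077917 described above to 46129394 to 46130844, which had 13.2 and 5.07 FPKM in rea1 and 12.3 and 3.70 FPKM in wild type.

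The loci next to the members mostly did not share their difference. For 149 members a nearest locus averaging 1 FPKM or more was found on the same chromosome. The median difference of these neighbours was 0.15 in rea1 and 0.02 in wild type, against -0.002 and 0.007 for the neighbours of the other loci within the limits. Both limits of 1 were reached by 6 of the 149 neighbours (4.03%), against 2.34% of the neighbours of the other loci. For 28 members the neighbour lay within 1000 bp, and there its difference had a median of -0.05 in rea1 and 0.08 in wild type. Only the 2 long loci on chromosome 5, each being the other's neighbour, reached both limits at that distance. On chromosome 8, the locus at 70510099 to 70510881, 2091 bp from the strongly enriched locus at 70512973, had 8.28 FPKM in polysome-bound and 2.63 FPKM in total RNA of rea1, and 5.07 and 1.25 FPKM in wild type. In 5 of the 149 cases the neighbour was at or below -1 in both genotypes, a share close to the 273 of 9205 neighbours of the other loci. An example is chromosome 8, 135301727 to 135306437. It had 2.14 FPKM in polysome-bound and 8.28 FPKM in total RNA of rea1, and 2.48 and 6.38 FPKM in wild type. The member beside it, at 135307883 to 135314644, had 49.1 and 9.52 FPKM in the same fractions of rea1 and 43.5 and 12.02 FPKM in wild type. These 2 loci, 1445 bp apart, thus differed in opposite directions between the fractions in both genotypes.

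**Figure D5:**
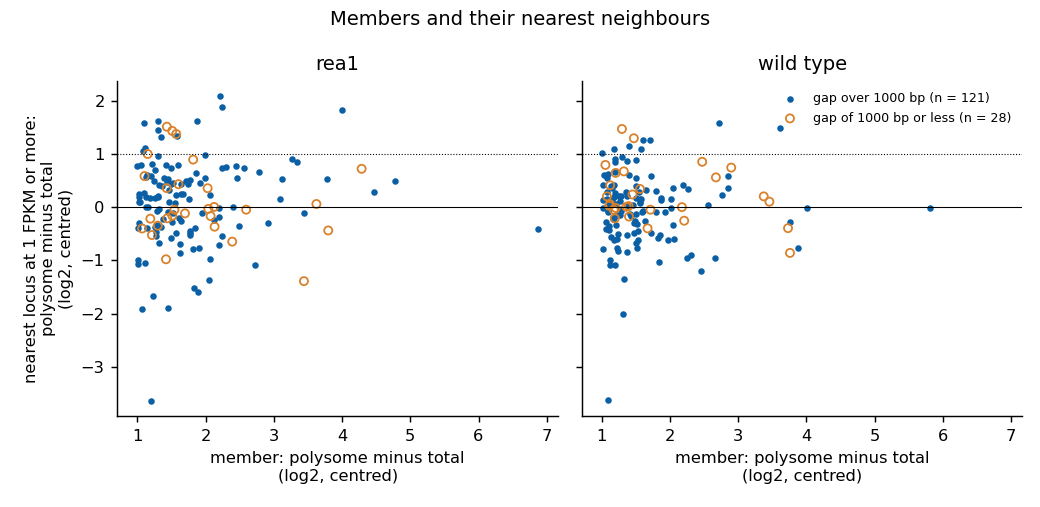
Polysome-bound minus total RNA (log2, centred) of each of 149 members (x axis) and of its nearest locus at 1 FPKM or more (y axis), in rea1 (left) and wild type (right); open circles mark the 28 neighbours within 1000 bp. Most neighbours scatter around 0, with medians of 0.15 in rea1 and 0.02 in wild type.

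In 10 members (6.67%, against 5.29% of the other loci within the limits) the coordinates are shared with other entries, 11 in all. Outside the organelle genomes, no entry shared a base with an entry of other coordinates, and the files do not say whether overlapping loci were listed under one span. None of the 11 other entries reached the limit in either genotype. Their differences ran from -1.19 to 0.91 in rea1 and from -1.49 to 0.87 in wild type, and 4 were below 0 in both. Only 8 of the 11 averaged 1 FPKM or more, and below that the pseudocount makes the limit hard to reach. At chromosome 5, 19696664 to 19702871, the other entry had a mean of 0.553 FPKM. Its folds were 2.30 in rea1 and 8.55 in wild type, the direction of the member. At chromosome 5, 214422987 to 214429185, the member entry had 34.4 FPKM in polysome-bound and 16.1 FPKM in total RNA of rea1, and 25.2 and 11.7 FPKM in wild type. Of the other 2 entries there, the more abundant had 19.7 and 64.4 FPKM in rea1 and 14.4 and 17.4 FPKM in wild type, the opposite direction.

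At chromosome 1, 644608 to 652093, the member entry had 76.2 FPKM in polysome-bound and 44.7 FPKM in total RNA of rea1, and 69.1 and 19.5 FPKM in wild type. The other entry there had 6.54 and 15.8 FPKM in rea1 and 3.66 and 4.00 FPKM in wild type. At chromosome 3, 166424529 to 166434196, the member had 75.3 and 37.1 FPKM in rea1 and 57.1 and 21.0 FPKM in wild type. The member entry at chromosome 1, 180015325, had nearly all of the FPKM at its coordinates, while the other entry had 0.159 FPKM in rea1 and 0.350 FPKM in wild-type polysome-bound RNA and was listed at 0 in total RNA. The member at chromosome 5, 73153963 to 73167997, had 30.1 and 9.79 FPKM in rea1 and 21.1 and 6.06 FPKM in wild type. When the entries at each of the 10 coordinates were summed, 5 of the 10 sums reached both limits. The other 5 sums did not. Whether fragments were divided among entries of the same span is not stated. If they were, the entry values at all 10 coordinates depend on how this was done.

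The mirrored set gives the scale on the other side. With the same limits of abundance, length and genotype difference, 178 loci (1.9%) had a polysome-minus-total difference of -1 or less in both genotypes, against 150 (1.6%) with 1 or more. The ratio of the members' summed FPKM in polysome-bound RNA to that in total RNA was 2.53 in rea1 and 3.11 in wild type. For the mirrored set this ratio of sums was 0.211 in rea1 and 0.292 in wild type. After centring, the median differences were 1.56 in rea1 and 1.41 in wild type for the members, and -1.57 and -1.42 for the mirrored set. Mirrored limits on these same values chose both sets, so nothing is read from the likeness in size. As deposited, the medians were 1.09 in rea1 and 1.35 in wild type for the members. For the mirrored set they were -2.04 and -1.48 as deposited. Entries listed at 0 in some library made up 2% of the members and 2.25% of the mirrored set, both above the 0.181% over all loci within the limits.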

How the data were processed

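RNA of endosperm was sequenced from rea1 and wild type as polysome-bound and total RNA, 4 libraries with 1 per group. Per the labels' protocols, both fractions came from equal amounts of powder, and polysomes were pelleted through a sucrose cushion. The deposited values are FPKM per locus, computed by the authors. Bowtie 0.12.2 and B73 RefGen_v3 were used, per the submitters' processing notes; the quantification program, the annotation and any pooling of the triplicates that the design text mentions are named in no source used here. Fragment totals are missing from them too, so no interval on a single value was computed.

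Each file listed the same 29642 entries. Starts were read as counted from 0, since 20 entries start at 0, and are printed counted from 1. The gene table at hand is of another build and was not joined. Members and lists were chosen with earlier results of these data known. The pseudocount was 1. Named loci were the 8 with the largest smaller difference, those next to each limit, the extremes of level, length and genotype or ratio difference, the closest pairs, and up to 6 listed at 0 or sharing coordinates, to which all members listed at 0 were added; class limits and the neighbours named were chosen after the values were seen. No test was made. Alternatives were 2 other pseudocounts, 4 other scalings, other limits, and leaving out loci at 0 or with shared coordinates. The selection code was run on simulated data with planted shifts well past the limits and far less noise than the real spread. That run checks the code only and says nothing of the loci near the limits. The software was matplotlib 3.10.9, scipy 1.17.1, pandas 2.3.3 and numpy 2.4.6 under Python 3.11.15.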

Additional observations from a re-analysis of the deposited data

How the results depend on the processing

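The number of members depended on the pseudocount, the centring and the limits. It was 150 as reported, 70 with a pseudocount of 5 (61 of them among the 150) and 85 without centring (72 among the 150). It was 252 with a mean of 1 to below 100 FPKM, 99 with 10 to below 100 FPKM, and 48 with both differences at least 1.5. Under the other 8 alternatives, 2 of them added after the data were seen, it lay between 129 (at least 2 FPKM in both total RNA libraries) and 166 (pseudocount 0.1). The median difference of the 150 was 1.71 in rea1 and 1.57 in wild type with a pseudocount of 0.1, 1.14 and 1.02 with a pseudocount of 5, and 1.09 in rea1 and 1.35 in wild type without centring, where the order of the genotypes turned. A larger pseudocount lowers each difference by construction, and leaving out the centring lowers the rea1 difference by 0.47. The median length was 2165 bp with a pseudocount of 5 and between 2866 and 2982 bp under the other 7. The share with another member nearby was 13.3% within 500 kb, where 8.52% of the other loci had a member, and between 2.86% and 6.54% under the other 8. The number of the 150 with the larger difference in rea1 was 44 without centring, against 96 as reported and 91 to 103 under the other pseudocounts and scalings. No paired analysis was possible because each group has 1 library.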

Other observations

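Of the 58 loci that passed both polysome-to-total limits but not the genotype limits, 53 were at or below -1 (log2, centred, rea1 minus wild type) in at least 1 fraction and 5 at or above 1. Over all 9391 loci within the limits these counts were 522 (5.56%) and 741 (7.89%). In total RNA 42 of the 58 were at or below -1, against 4.62% of all loci within the limits, and in polysome-bound RNA 35 were, against 1.65%; 24 were in both. The limits that chose the 58 use the same values, so the counts are a description only. The following were chosen after their values were seen. Chromosome 3, 23898039 to 23899690, had 4.60 FPKM in polysome-bound and 0.116 FPKM in total RNA of rea1, and 67.0 and 3.50 FPKM in wild type, so it was low in both fractions of rea1. Chromosome 7 held a neighbouring pair 1679 bp apart. The locus at 6575550 to 6579920 had 10.4 and 1.38 FPKM in rea1 and 14.7 and 4.499 FPKM in wild type, and that at 6581600 to 6583265 had 9.26 and 1.22 FPKM in rea1 and 9.36 and 3.60 FPKM in wild type. Both were lower in rea1 mainly in total RNA.

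Outside the abundance limits, with the same limits on length, ratios and genotype difference, 102 of 6444 loci (1.58%) qualified at a mean of 1 to below 5 FPKM and 5 of 840 (0.595%) at 100 FPKM or more.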
